A study of Mus musculus with 6 samples.

Results

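The genes described here encode the linker histones (H1) and the core histones H2A, H2B, H3 and H4, together with 5 histone genes that are read apart from the clusters, H2az1, H2az2, H2ax, H3f3a and H3f3b. Members were taken by gene symbol, with 1 probe set per symbol, the one with the highest mean over the 6 arrays, and they came to 62 of the 19505 genes tested. They comprised 8 linker, 13 H2A, 15 H2B, 10 H3 and 11 H4 genes and the 5 others, for which the rule's term is replication-independent variants. Transcripts were measured in 393P cells, a mouse line derived from lung adenocarcinoma, which some labels write as 9393P. The groups were cells stably transfected with AC9 for overexpression (3 arrays) and cells with the empty VECTOR (3 arrays). Culture was in RPMI plus serum, transfection used jetPRIME, and puromycin or G418 served for selection. The sources used here give neither the drug of each group nor whether a group was 1 clone or a pool, and these cannot be told apart from AC9.

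A nucleosome wraps DNA around an octamer of H2A, H2B, H3 and H4, and an H1 linker histone sits where the DNA enters and leaves it. Most of these proteins come from many near-identical, intronless genes in clusters that are transcribed mainly in S phase, when new chromatin is built. Their mRNAs end in a stem-loop in place of a poly(A) tail. H2az1, H2az2, H3f3a and H3f3b lie elsewhere in the genome, have introns and polyadenylated mRNAs, and supply histones throughout the cell cycle. H2ax encodes the variant phosphorylated at DNA breaks, and in human cells its mRNA exists both in a stem-loop and in a polyadenylated form.

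Signals are log2 RMA intensities per probe set. A bound for dim signals was set at 6.06, the 90th percentile of the negative control probe sets. It was passed by 54.1% to 54.6% of genes, and array medians were 6.42 to 6.46. Adcy9, the gene that the reference table pairs with the name AC9, read 6.73 ± 0.12 in AC9 and 6.12 ± 0.03 in VECTOR (SD, n = 3 each; limma adjusted p 0.00264). Over all genes tested, limma called 8.26% higher and 9.29% lower in AC9 at an adjusted p of 0.05. Of the 8 epithelial markers, 3 rose (37.5%), Cldn4 by 0.50, Krt7 by 0.48 and Epcam by 0.44, and 1 fell (12.5%), Krt19, by 0.47. Krt18 and Cdh1 averaged 12.62 and 12.61 in AC9 and 12.37 and 12.84 in VECTOR. Of the 7 leukocyte markers, 3 rose (42.9%): Cd14, by 0.91, and Cd52 and Cd53, which lay under the bound in both groups, as did Ptprc. Of the 6 endothelial and 6 fibroblast markers, 0 were called by limma, with adjusted p of at least 0.0547 and 0.536, and 5 of each lay under the bound in both groups.

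Histone promoters are known for a few short elements, and the 150 bases before the start of 7 members are shown here to make these elements visible, as printed in RefSeq's GRCm38.p6. Letters in capitals mark matches, on either strand, to the TATA box (TATAAA), the CCAAT box (CCAAT), the octamer ATTTGCAT known from H2B promoters, the cAMP response element TGACGTCA, the E2F-type sequence TTTNGCGC and AAACACA, known as the H1 box. The first 4 are the somatic linker genes H1f1 (chr13:23763518-23763667, plus strand), H1f3 (chr13:23554882-23555031, plus strand), H1f5 (chr13:21780626-21780775, minus strand) and H1f2 (chr13:23738657-23738806, plus strand), the linker genes of the chromosome 13 cluster that rose.
H1f1: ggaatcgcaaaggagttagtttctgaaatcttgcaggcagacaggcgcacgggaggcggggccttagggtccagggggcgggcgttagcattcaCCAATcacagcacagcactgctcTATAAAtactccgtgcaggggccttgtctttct
H1f3: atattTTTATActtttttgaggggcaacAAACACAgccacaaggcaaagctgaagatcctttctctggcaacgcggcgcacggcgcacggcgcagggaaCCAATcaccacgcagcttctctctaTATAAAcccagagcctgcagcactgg
H1f5: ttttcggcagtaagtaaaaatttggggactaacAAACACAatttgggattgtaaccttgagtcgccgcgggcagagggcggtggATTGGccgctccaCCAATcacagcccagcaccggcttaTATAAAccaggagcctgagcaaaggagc
H1f2: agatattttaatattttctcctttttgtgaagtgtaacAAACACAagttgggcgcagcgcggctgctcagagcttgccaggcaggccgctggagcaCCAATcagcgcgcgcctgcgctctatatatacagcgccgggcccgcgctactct
The H2B genes H2bc18 (chr3:96269550-96269699, plus strand) and H2bc12 (chr13:22035671-22035820, plus strand) show the octamer, and the H4 gene H4c1 (chr13:23761250-23761399, minus strand) holds the cAMP response element at 2 places.
H2bc18: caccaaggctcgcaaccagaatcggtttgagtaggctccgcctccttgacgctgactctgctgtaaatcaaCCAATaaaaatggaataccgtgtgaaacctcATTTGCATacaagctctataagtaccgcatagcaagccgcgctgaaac
H2bc12: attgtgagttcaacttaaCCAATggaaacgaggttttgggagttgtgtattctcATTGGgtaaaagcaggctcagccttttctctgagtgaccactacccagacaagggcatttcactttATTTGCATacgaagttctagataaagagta
H4c1: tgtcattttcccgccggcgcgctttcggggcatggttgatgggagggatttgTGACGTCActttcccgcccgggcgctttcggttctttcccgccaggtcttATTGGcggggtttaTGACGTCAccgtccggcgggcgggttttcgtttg
A promoter was listed for 56 of the 62 members. Within the 250 bases before the start, CCAAT occurred in 41 of 52 linker and core promoters (78.8%), against 36.0% of the 15691 listed promoters of all genes tested. It was not particular to the clusters, with 4 of the 4 listed variant promoters holding it, nor shared by every class, with 3 of 10 H4 promoters (30.0%). TATAAA occurred in 24 of 52 linker and core promoters (46.2%), against 12.2% of all. The octamer occurred in 6 of 13 H2A and 6 of 13 H2B promoters, in 0 of 8 H1, 0 of 8 H3 and 0 of 10 H4 promoters, and in 1.63% of all. Among the 4 listed variant promoters, that of H3f3b held it. AAACACA occurred in 4 of 8 H1 promoters, those of H1f2, H1f3, H1f5 and H1f6, against 5.46% of all. It also occurred in 2 of 13 H2A and 2 of 13 H2B promoters and in that of the variant H3f3a, but in 0 of 8 H3 and 0 of 10 H4 promoters. TTTNGCGC occurred in 10 of 52 linker and core promoters (19.2%), all of them H2A or H2B, against 1.54% of all. TGACGTCA occurred in 4 of 52 (7.69%), those of H2ac11, H2bc11, H4c1 and H4c8, against 2.06% of all. These promoters are not all separate sequence: 7 H2A and H2B pairs are divergent neighbours whose 250-base windows share 163 to 248 bases. H2ac11 and H2bc11 hold the same TGACGTCA site, and 3 octamer sites, 2 TTTNGCGC sites and 1 AAACACA site likewise count for both genes of a pair. Counted by position in the linker and core promoters, there were 9 octamer, 8 TTTNGCGC, 7 AAACACA and 4 TGACGTCA sites. Of the TGACGTCA sites, H4c1 holds 2. Matches of different motifs may share bases, and a match is only a description of these letters.

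Most histone genes were higher in the AC9 cells. By limma at an adjusted p of 0.05, 50 of the 62 members rose and 1 fell, so that 51 of 62 were called in either direction, where 8.26% of all genes rose, 9.29% fell and 17.6% did either. The median log2 change of the 62 members was 0.59, or 1.51-fold, against 0.02 over all genes tested, and the changes ran from -0.46 (H2az2) to 1.44 (H1f1). The mean level of the 62 members was 9.87, 9.87 and 9.85 on the AC9 arrays, against 9.32, 9.34 and 9.30 on the VECTOR arrays, so that the groups stood apart by more than the arrays within them. All 3 AC9 arrays lay above all 3 VECTOR arrays for 51 members, against 17.3% of all genes, and below them for 2 members, against 17.7%. The rise reached 1.5-fold and passed the test for 32 members, against 2.98% of all genes, and 2-fold for 1 member, H1f1. In the order of all 19505 genes from the largest rise downward, 27 members lay in the first 500 and 41 in the first 1000. In bulk RNA, more cells in the phase that makes histones and more histone RNA per cell cannot be told apart.

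In all, 5 members were dim in AC9 and in VECTOR alike, 0 of them were called by limma at either an adjusted or an unadjusted p of 0.05, and their differences, which the plot of changes shows, are not read as sizes of change: H1f6, H1f8, H2bc1, H2bc21 and H3c1. Of the 52 linker and core genes with both groups above the bound, 49 rose, where 13.2% of all genes above the bound in both groups did. The remaining 3 were H1f7, H2ac6 and H4c14. H3c14 and H3c15 read the same value on every array, so that they are 1 measurement, and counted once they leave 49 rises among 61. Histone genes of a class share long stretches of sequence, and the probe sequences were not used here, so the share of a signal that each copy gives is uncertain.

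**Figure D1:**
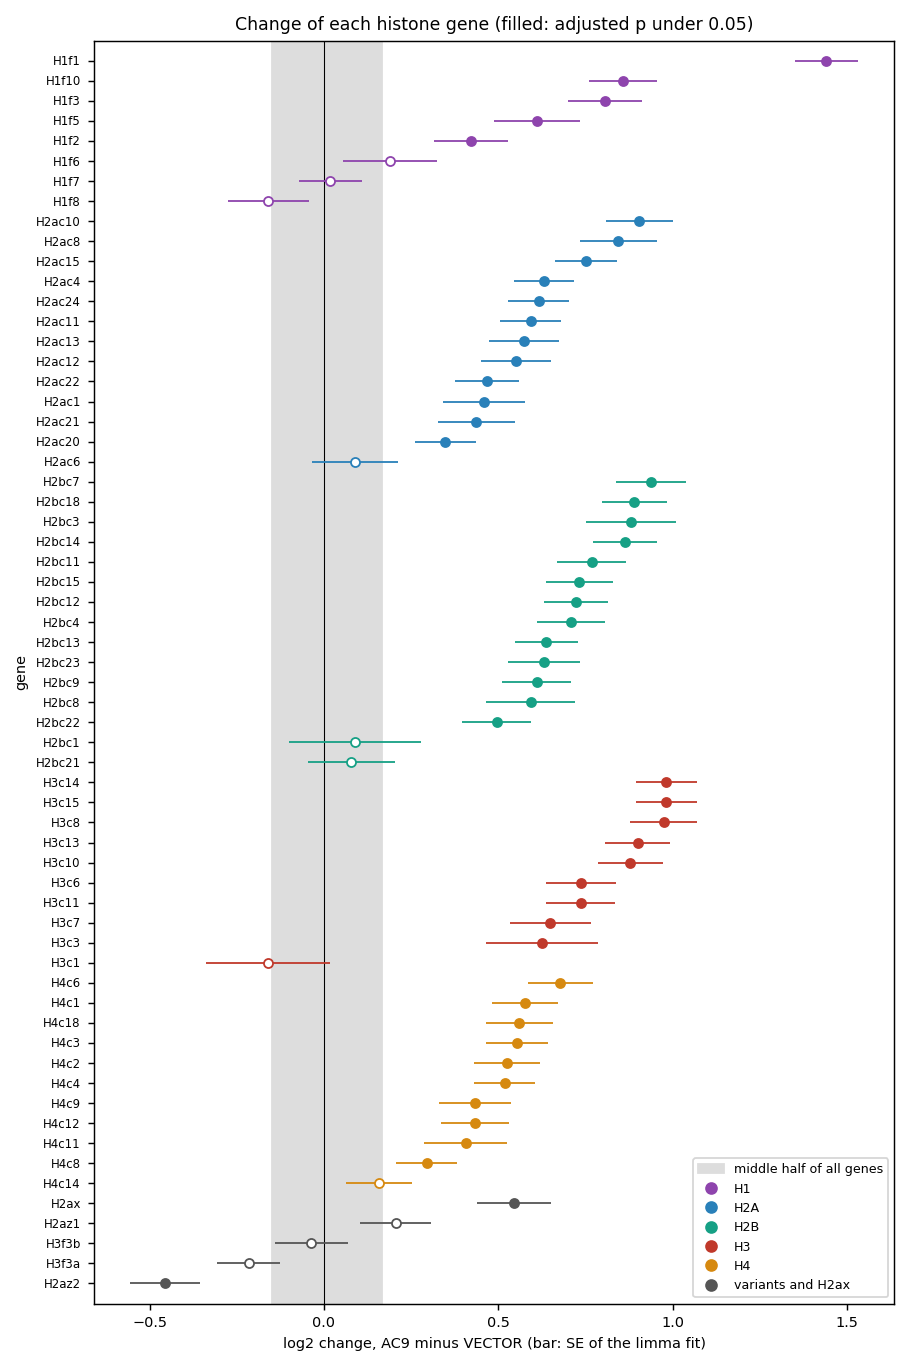
Log2 change of each of the 62 histone genes, AC9 minus VECTOR, by class; points are estimates, bars standard errors of the limma fit, filled points have an adjusted p under 0.05, and the grey band spans the quartiles of all genes tested. All 57 linker and core genes, dim ones included, lie between -0.16 and 1.44 (H1f1), and those called higher between 0.29 (H4c8) and 1.44. The 5 variants, in dark grey, spread from -0.46 to 0.55.

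All 4 measured somatic linker genes of the cluster rose, as did H1f10. H1f4 was not among the members. Of the 3 germ-cell linker genes, 0 were called, where 17.6% of all genes were called in either direction. H1f1, which encodes H1.1, read 8.98, 9.12 and 8.97 on the AC9 arrays, against 7.58, 7.59 and 7.57 on the VECTOR arrays. It was the member that rose most, by 1.44 (SE 0.09), which is 2.71-fold (limma adjusted p 2.09e-05), and ranked 49 of 19505 genes. Its 150 bases shown above hold a TATA box and a CCAAT box but no AAACACA, which the 3 other somatic linker promoters shown hold. H1f3, which encodes H1.3, averaged 9.52 ± 0.12 in AC9 and 8.72 ± 0.11 in VECTOR (SD, n = 3 each) and rose 1.75-fold (adjusted p 0.00102). H1f5, which encodes H1.5, read 7.83, 7.999 and 8.01 on the AC9 arrays, against 7.47, 7.44 and 7.09 on the VECTOR arrays, and rose by 0.61 (adjusted p 0.00883). H1f2, which encodes H1.2, read 8.40, 8.44 and 8.57 on the AC9 arrays, against 7.88, 8.12 and 8.14 on the VECTOR arrays. Its groups did not overlap, but its rise of 0.42 (adjusted p 0.0234) was the smallest of the 4, and the call was lost without any 1 of the 3 AC9 arrays or without VECTOR replicate 1 (adjusted p 0.0522, 0.0563, 0.0862 and 0.0730).

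H1f10, which encodes H1.10 (H1x), lies outside the clusters and in human cells has a polyadenylated mRNA, and it rose as well. It read 7.67, 7.50 and 7.62 on the AC9 arrays, against 6.78, 6.62 and 6.81 on the VECTOR arrays, a rise of 0.86 (SE 0.10, adjusted p 0.000493), and all AC9 arrays lay above all VECTOR arrays. H1f7, a linker histone of spermatids, read 6.60, 6.55 and 6.64 on the AC9 arrays, against 6.59, 6.52 and 6.64 on the VECTOR arrays, with a change of 0.02 (adjusted p 0.918), and its groups overlapped. H1f6, the testis H1t, and H1f8, the oocyte linker histone, both lay under the bound, at 5.28 and 4.999 in AC9 and at 5.09 and 5.16 in VECTOR.

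**Figure D2:**
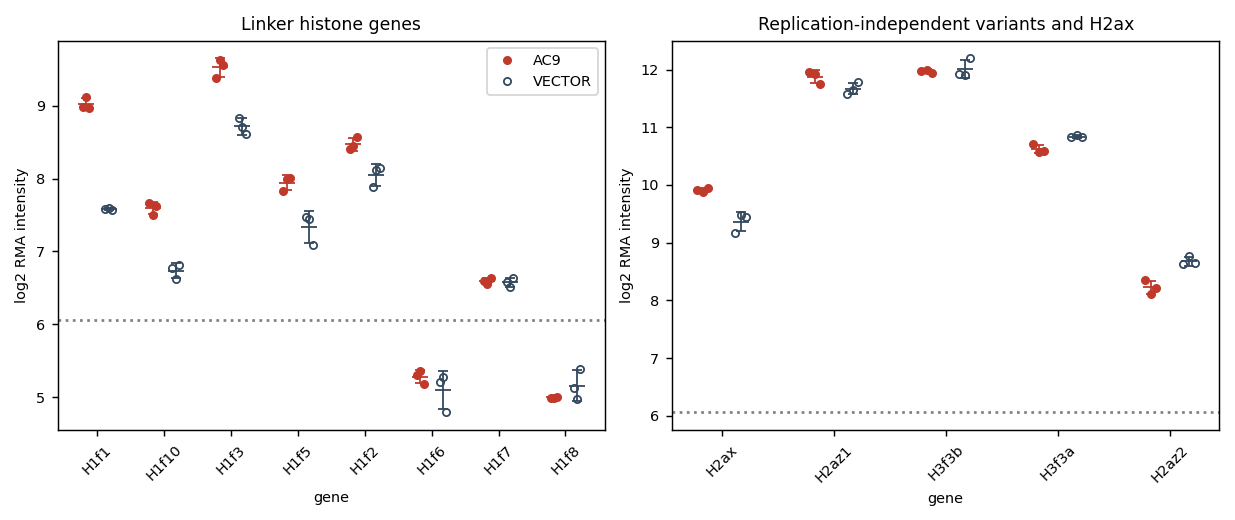
Log2 RMA intensity of the 8 linker genes (left) and of the 5 variants (right) on each array; filled points are AC9 arrays, open points VECTOR arrays, horizontal ticks are means, bars are SD over 3 arrays, and the dotted line is the negative-control bound of 6.06. H1f1 shows the widest gap, 9.02 in AC9 against 7.58 in VECTOR, and H2az2 is the member that fell.

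Among the H2A genes, 12 of 13 rose and 0 fell, with a median change of 0.57 and a range of 0.09 to 0.90. H2ac10 rose most, by 0.90 (SE 0.10), or 1.87-fold, with an adjusted p of 0.00033. It read 11.19, 11.18 and 11.05 on the AC9 arrays, against 10.29, 10.13 and 10.28 on the VECTOR arrays. H2ac8 read 10.93, 10.77 and 10.79 on the AC9 arrays, against 9.99, 9.81 and 10.16 on the VECTOR arrays, and rose by 0.84 (adjusted p 0.00106). These groups did not overlap, and the same held for each of the 12 H2A genes that rose. It held for all 50 members called higher, so that it adds little to the call itself. H2ac15, H2ac4 and H2ac24 rose by 0.75, 0.63 and 0.62 (adjusted p 0.00055, 0.0013 and 0.00164). H2ac22 was among the brightest members, at 12.40 ± 0.04 in AC9 and 11.93 ± 0.08 in VECTOR (SD, n = 3 each), and rose by 0.47 (adjusted p 0.00753). H2ac11, whose promoter holds TGACGTCA, rose by 0.59 (adjusted p 0.00194), and the H2B gene H2bc11, which shares that site, by 0.77. A relation between the site and these changes was not tested.

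H2ac1 encodes TH2A, an H2A of male germ cells, and read 8.22, 8.29 and 8.01 on the AC9 arrays, against 7.88, 7.56 and 7.70 on the VECTOR arrays; its rise of 0.46 (adjusted p 0.0254) lost its call without AC9 replicate 1 or 2 or VECTOR replicate 2 or 3 (adjusted p 0.0860, 0.0879, 0.0818 and 0.0629). On chromosome 3, H2ac20 rose by 0.35 and H2ac21 by 0.44 (adjusted p 0.0229 and 0.0246). H2ac20 lost its call without any 1 AC9 array or VECTOR replicate 3 (0.0611 to 0.0734), and H2ac21 without AC9 replicate 2 or 3 or VECTOR replicate 2 or 3 (0.0589 to 0.0797). H2ac6 was the H2A gene that did not pass the test, with 8.60, 8.38 and 8.37 on the AC9 arrays, against 8.55, 8.16 and 8.38 on the VECTOR arrays, a change of 0.09 (adjusted p 0.685). Its groups overlapped although its signal lay well above the bound.

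Of the 15 H2B genes, 13 rose and 0 fell, with a median change of 0.71. H2bc7 read 10.20, 10.19 and 10.20 on the AC9 arrays, against 9.35, 9.34 and 9.09 on the VECTOR arrays. It rose 1.92-fold (log2 change 0.94, SE 0.10, adjusted p 0.000352), with an SD of 0.0065 over its AC9 arrays. H2bc18, whose promoter with its octamer is shown above, read 9.84, 9.98 and 9.80 on the AC9 arrays, against 8.997, 9.01 and 8.94 on the VECTOR arrays, and rose by 0.89 (adjusted p 0.000292). H2bc14 rose by 0.86 (adjusted p 0.00033), H2bc11 by 0.77, H2bc15 by 0.73 and H2bc12, the other promoter with an octamer shown, by 0.72 (adjusted p 0.000825). The 13 that rose did so by 0.49 (H2bc22) to 0.94, and in each of them, as in every member called higher, the groups did not overlap. The 2 members not called were dim. H2bc1, the testis form TH2B, averaged 5.86 in AC9 and 5.77 in VECTOR, and H2bc21, which encodes an H2B variant of olfactory neurons in mice, averaged 6.02 in AC9 and 5.94 in VECTOR.

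Of the 10 H3 genes, 9 rose, with a median change of 0.81, or 8 of 9 with a median of 0.74 when the equal pair counts once. H3c14 and H3c15, the pair with equal values, read 12.06, 11.93 and 11.98 on the AC9 arrays, against 11.03, 10.98 and 11.01 on the VECTOR arrays. They rose by 0.98 (SE 0.09), or 1.98-fold (adjusted p 0.000132), without overlap. Their neighbour on chromosome 3, H3c13, read 12.07, 11.96 and 12.01 on the AC9 arrays, against 11.05, 11.22 and 11.09 on the VECTOR arrays and rose by 0.90 (adjusted p 0.000288). H3c8 read 10.76, 10.69 and 10.64 on the AC9 arrays, against 9.67, 9.85 and 9.65 on the VECTOR arrays, a rise of 0.97 (adjusted p 0.000221). H3c10 and H3c11 rose by 0.88 and 0.74 (adjusted p 0.000334 and 0.00114). By the synonyms in the reference table, 6 of the H3 members form a set with H3c4, and these rose with a median of 0.82, or 0.74 over 5 with the equal pair once. The 3 others above the bound, H3c8, H3c10 and H3c11, rose by 0.74 to 0.97, so that the ranges of both sets overlapped. H3c3 had 1 VECTOR array apart, with 10.49, 10.54 and 10.37 on the AC9 arrays, against 10.04, 10.05 and 9.43 on the VECTOR arrays; its rise of 0.63 (SE 0.16, adjusted p 0.0261) lost its call without AC9 replicate 1 or 2 (adjusted p 0.0788 and 0.0763). H3c1 was the dimmest member, at 3.34 in AC9 and 3.50 in VECTOR.

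H4 had the lowest median change of the core classes, 0.52, with 10 of 11 genes called higher and 0 lower. For all 11, the AC9 arrays lay above the VECTOR arrays without overlap, as they did for 17.3% of all genes. H4c6 rose most, by 0.68 (SE 0.09, adjusted p 0.00127), with 10.66, 10.78 and 10.86 on the AC9 arrays, against 10.08, 10.08 and 10.11 on the VECTOR arrays. H4c1, whose promoter above holds 2 copies of TGACGTCA, read 12.24, 12.32 and 12.20 on the AC9 arrays, against 11.57, 11.76 and 11.70 on the VECTOR arrays, and rose by 0.58 (adjusted p 0.00324). H4c4 read 11.50, 11.50 and 11.49 on the AC9 arrays, against 10.92, 10.97 and 11.05 on the VECTOR arrays, and rose by 0.52 (adjusted p 0.00385). These 3 genes, H4c2, H4c3 and H4c18 had changes of 0.52 to 0.68. H4c8, which holds TGACGTCA once, rose by 0.29 (adjusted p 0.0474), and its call was lost without any 1 of the 6 arrays (adjusted p 0.0758 to 0.144). H4c11 rose by 0.41 (adjusted p 0.0442) and lost its call without any 1 array other than VECTOR replicate 2 (0.0693 to 0.142), and H4c9 rose by 0.43 and lost its call without AC9 replicate 3 or VECTOR replicate 2 (0.0721 and 0.0604). H4c14, on chromosome 3, was bright at 11.43 ± 0.09 in AC9 and 11.27 ± 0.06 in VECTOR (SD, n = 3 each), and its change of 0.16 did not pass (adjusted p 0.307).

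**Figure D3:**
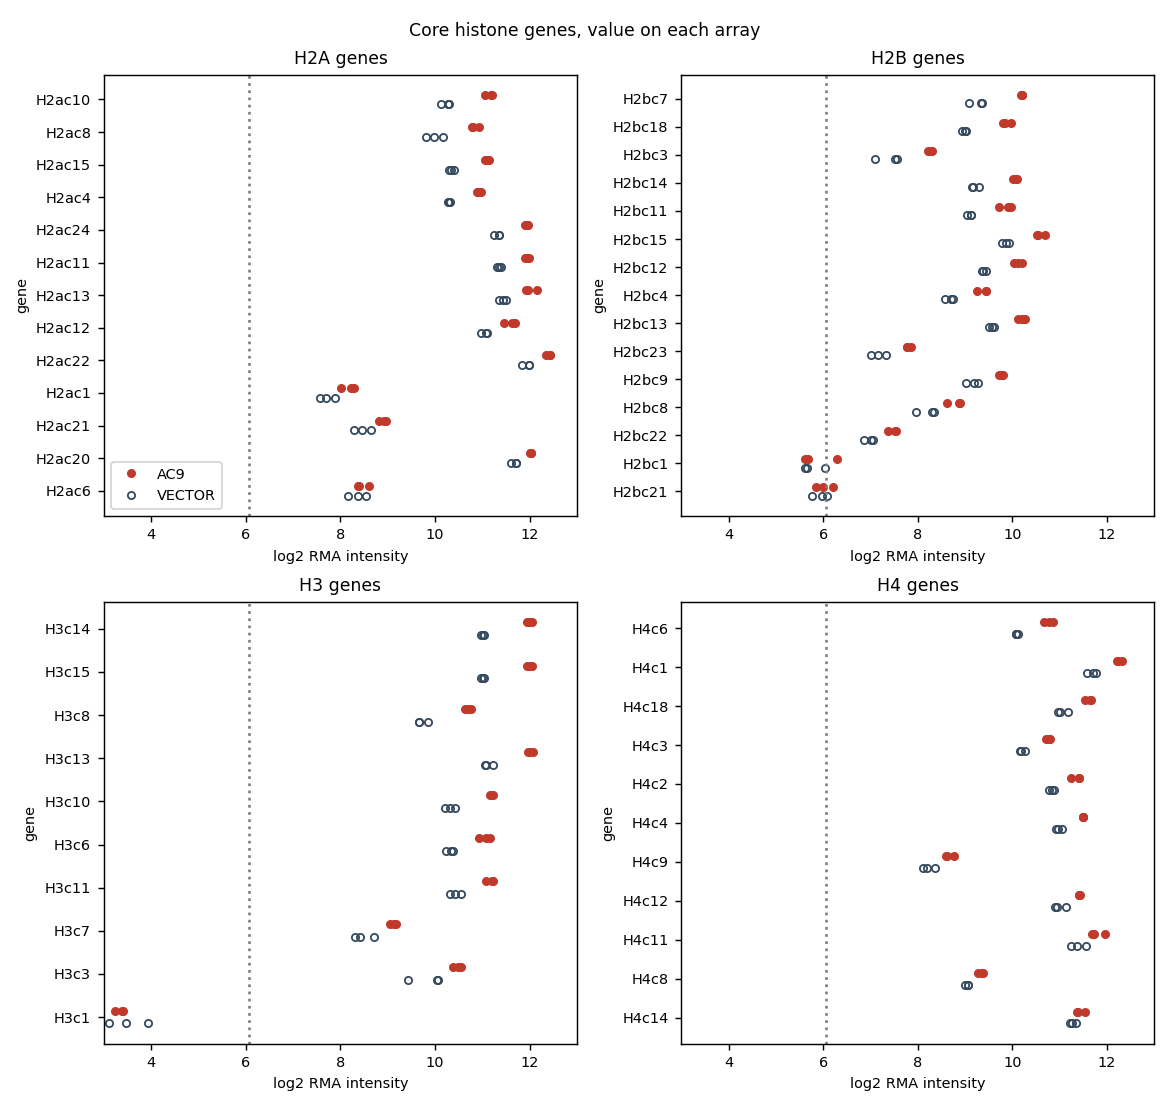
Log2 RMA intensity of the 49 core histone genes on each array, in a panel per class and ordered by change; filled points are AC9 arrays, open points VECTOR arrays, and the dotted line is the negative-control bound. In 45 of the 49 genes, against 17.3% of all genes, the AC9 arrays all lie to the right of the VECTOR arrays. H2ac6, H2bc1, H2bc21 and H3c1 overlap.

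Among the 5 variants, H2ax rose and H2az2 fell, while H2az1, H3f3a and H3f3b did not pass the test. H2ax read 9.91, 9.88 and 9.94 on the AC9 arrays, against 9.17, 9.47 and 9.45 on the VECTOR arrays, a rise of 0.55 (SE 0.11), or 1.46-fold (adjusted p 0.00734), without overlap. H2az2, 1 of the 2 genes for H2A.Z, the variant that marks promoters and enhancers, read 8.35, 8.11 and 8.21 on the AC9 arrays, against 8.63, 8.77 and 8.64 on the VECTOR arrays. Its change was -0.46 (SE 0.10, adjusted p 0.0128), and the call was lost without AC9 replicate 2 (adjusted p 0.0507). H2az1, the other H2A.Z gene, read 11.97, 11.92 and 11.74 on the AC9 arrays, against 11.59, 11.65 and 11.78 on the VECTOR arrays, with a change of 0.21 (adjusted p 0.215) and overlapping groups.

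H3f3a and H3f3b encode the same H3.3 protein, the variant placed outside replication. H3f3a read 10.71, 10.58 and 10.58 on the AC9 arrays, against 10.83, 10.86 and 10.82 on the VECTOR arrays; the AC9 arrays were lower without overlap, but the change of -0.22 did not pass (adjusted p 0.137). H3f3b read 11.98, 12.00 and 11.93 on the AC9 arrays, against 11.92, 11.91 and 12.19 on the VECTOR arrays, with a change of -0.04 (adjusted p 0.858). The 9 H3 cluster genes above the bound changed by 0.63 to 0.98. The log2 difference of H2az1 minus H2az2 averaged 3.65 ± 0.14 in AC9 and 2.99 ± 0.13 in VECTOR (SD, n = 3 each), and did not overlap between the groups (exact permutation p 0.10, the smallest that 3 against 3 arrays allow, or 0.20 adjusted over the 2 pairs). For H3f3a minus H3f3b it averaged -1.35 ± 0.08 in AC9 and -1.17 ± 0.17 in VECTOR (exact permutation p 0.30, also 0.30 adjusted). Background probe sets, which match no transcript, were lower in AC9 in 19 of 23 GC classes without overlap, by up to -0.50 in class 25. The part of this shift in the change of H2az2 or of any other member was not tested.

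**Figure D4:**
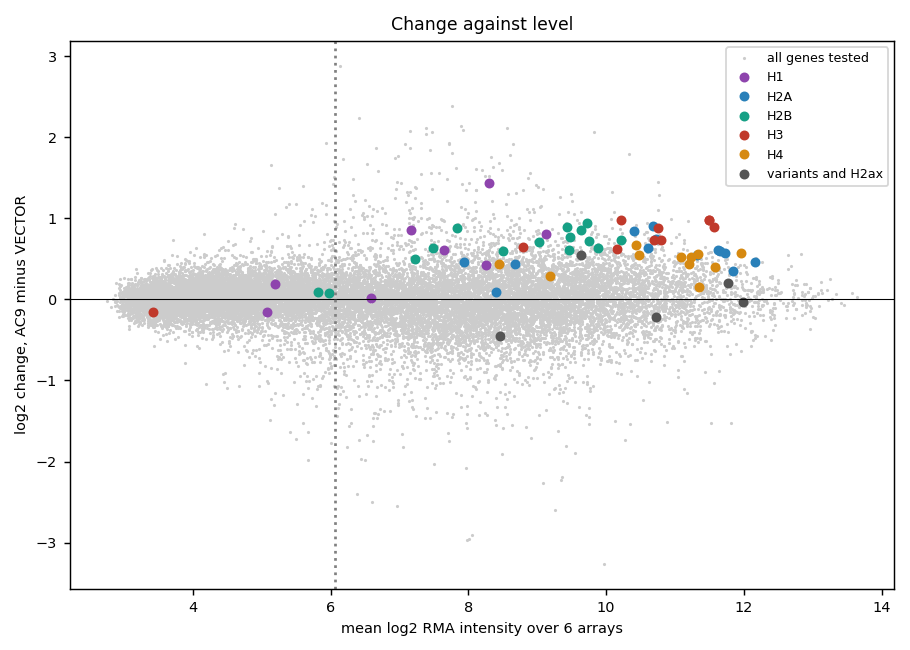
Log2 change, AC9 minus VECTOR, against the mean log2 RMA intensity over 6 arrays for all 19505 genes (grey) and for the histone genes by class (coloured); the dotted line is the negative-control bound. The histone genes that rose lie in a band of 0.29 to 1.44 above the bound, and the 5 dim ones lie to its left.

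Over the 51 distinct linker and core genes above the bound, the correlation between mean level and change was 0.04 by Pearson and -0.05 by Spearman, and within a class 0.34 and 0.03 for H2A (13 genes), 0.41 and 0.38 for H2B (13), 0.62 and 0.62 for H3 (8) and 0.15 and 0.00 for H4 (11). These points share the arrays and, within a class, much of their sequence. By position, 42 of 46 linker and core genes of chromosome 13 rose, with a median of 0.61, where 8.26% of all genes rose. On chromosome 3, 6 of 8 rose, with a median of 0.66. This counts both H3c14 and H3c15, which read the same values. With that pair counted once, the middle change on chromosome 3 is that of H2ac21, 0.44. The chromosome 13 genes form a block from H2bc13 to H2bc11, where 20 of 20 members rose, and a block from H4c8 to H2ac1, where 22 of 26 rose. Of those not called there, H1f6, H2bc1 and H3c1 lay under the bound in both groups, and H2ac6 lay above it. Medians in these blocks were 0.61 and 0.62. Between the histone genes of these blocks lay 9 measured genes that encode no histone, among them Hfe, Trim38 and the Slc17a transporters. Of these 9, 0 were called by limma, where 17.6% of all genes were called in either direction. Among so few genes, this count does not set them apart from all genes. One of them, Slc17a4, had an unadjusted limma p under 0.05 (0.0217). In both groups 8 of the 9 lay under the bound, and Zfp184, the 1 above it, changed by 0.03 (adjusted p 0.928).

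Of 28 measured genes of histone mRNA synthesis and 3′ end processing, 2 rose (7.14%) and 3 fell (10.7%), with a median change of 0.06. These shares lie near the 8.26% and 9.29% of all genes, so that the values of single genes here describe those genes and not the list. The number that rose was 4 under an intensity-trended robust prior and 1 without AC9 replicate 3. Nfyb, a subunit of the CCAAT-binding factor, rose by 0.60 (adjusted p 0.00546), and Upf1, a helicase that takes part in the decay of histone mRNA, by 0.40 (adjusted p 0.0127). The other listed subunits of that factor, Nfya and Nfyc, changed by 0.19 and 0.03 and did not pass (adjusted p 0.217 and 0.865). These subunits were named after their values were seen. Lsm10, a subunit of the U7 particle that cuts histone pre-mRNA, fell by 0.56 (adjusted p 0.00439) and Srrt by 0.35 (adjusted p 0.0447). The transcription factor Stat3, which the list includes, fell by 0.97 (adjusted p 0.000361). A role of Stat3 in histone mRNA was not examined here. Slbp, which binds the stem-loop, averaged 9.497 in AC9 and 9.64 in VECTOR, and Npat, the coactivator of the clusters, 9.69 in AC9 and 9.51 in VECTOR; their changes of -0.14 and 0.18 did not pass (adjusted p 0.358 and 0.212). Both were named after their values were seen.

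Among 32 histone chaperones and importers, 7 rose (21.9%, against 8.26% of all genes and 13.2% of genes above the bound) and 0 fell, with a median of 0.21. Asf1b, the H3-H4 chaperone of dividing cells, averaged 9.24 in AC9 and 8.23 in VECTOR and rose by 1.01 (SE 0.09, adjusted p 0.000163). Hjurp, the chaperone of the centromeric H3 variant, rose by 0.69, Anp32e, which removes H2A.Z from chromatin, by 0.62, the nucleolar protein Ncl by 0.56 and the importins Kpnb1 and Ipo5 by 0.52 and 0.36. The replication-coupled chaperone subunits Chaf1a and Chaf1b changed by 0.08 and -0.01 (adjusted p 0.741 and 0.956), also named after their values were seen. The number that rose in this list depended on the fit, with 15 under an intensity-trended robust prior and 14 with dim genes left out. Of 13 further histone variants measured, 1 rose (7.69%, near the 8.26% of all genes): Cenpa, the centromeric H3, by 1.05 (SE 0.11, adjusted p 0.000305). Of these 13, 7 lay under the bound in both groups.

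In a list of 38 measured genes of DNA replication and S phase, 11 rose (28.9%, against 8.26% of all genes and 13.2% of genes above the bound) and 0 fell. The other 27 did not pass the test, 12 of the 38 changes were negative, and the median was 0.06. The list's mean level was 8.06, 8.01 and 8.03 on the AC9 arrays, against 7.84, 7.85 and 7.87 on the VECTOR arrays. Rrm2, which helps to make deoxynucleotides, rose by 0.79 (adjusted p 0.000730) and the replication factor Mcm10 by 0.72 (adjusted p 0.000649). The replication genes Gins1 and Cdt1 rose by 0.59 and 0.57, and Cdc6 and Pole, under the bound in VECTOR, were at least 1.38-fold and 1.21-fold higher. Fen1, a nuclease of replication named after its values were seen, changed by -0.35 (adjusted p 0.200). Without AC9 replicate 1, 6 members of this list rose and 1 fell, and 1 also fell under the trended robust prior. All 30 measured genes of the G2/M list rose, with a median of 1.63, among them the mitotic kinesin Kif11 (by 2.38), the checkpoint kinase gene Bub1 (by 2.14) and the proliferation marker Mki67 (by 2.12). Its mean level was 8.91, 8.90 and 8.92 on the AC9 arrays, against 7.22, 7.20 and 7.39 on the VECTOR arrays. The median change of the histone genes, 0.59, lay between those of these lists. The part of a shift in cell cycle phase in the rise of the histone genes was not tested.

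**Figure D5:**
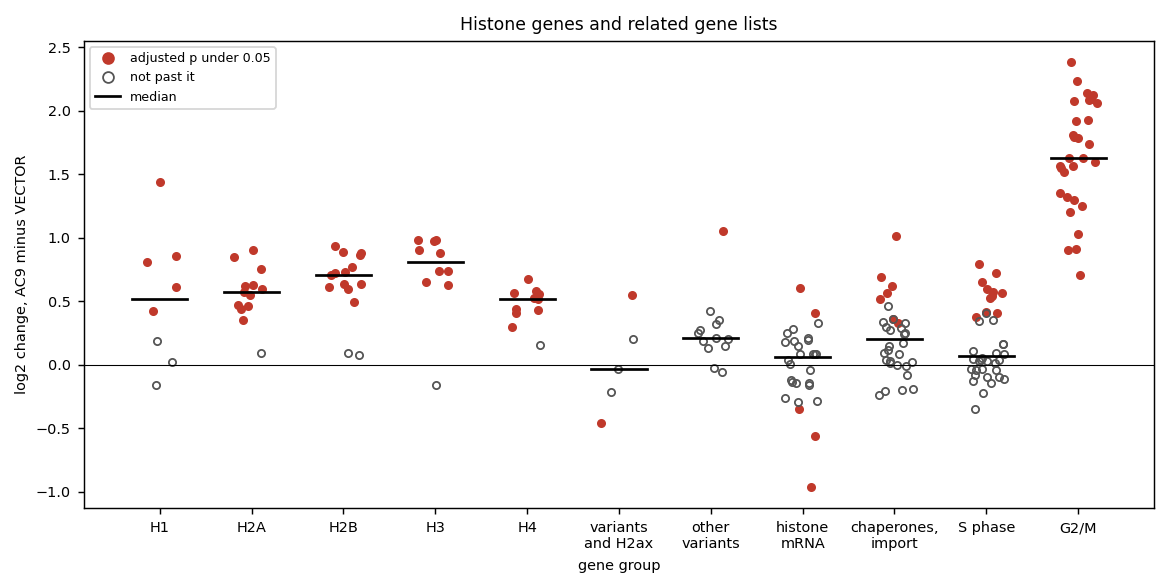
Log2 change, AC9 minus VECTOR, of every gene in the histone classes and in 5 related lists; filled points have an adjusted p under 0.05, open points do not, and black lines are medians. Linker and core classes have medians of 0.52 to 0.81, the variants -0.04, histone mRNA factors 0.06, S phase 0.06 and G2/M 1.63.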

How the data were processed

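The 6 Clariom S arrays were analysed from the deposited log2 intensities per probe set, RMA values according to what the submitters' processing notes say of the authors' steps. For the RMA software and the genome build, the sources used here give no name. All 6 columns matched a sample by name. Of 22206 probe sets that are not controls, 19572 had exactly 1 gene symbol in GEO's platform annotation and 2634 had none. All 19572 matched a RefSeq table (GRCm38.p6) by gene number, which changed 0 symbols and served for names, neighbours and promoters. Each of 19505 genes was represented by its brightest probe set on average.

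The test of AC9 against VECTOR used lmFit and eBayes of limma 3.58.1 under R 4.3.3 (two-sided, constant prior variance), with no further normalization or filter and Benjamini-Hochberg adjustment over all genes. SE is that of the fit. On simulated data over 19505 genes, with 100 genes changed at each size, 75% of changes of 1 and 49% of changes of 0.6 on the log2 scale were recovered. In that simulation 126 genes were called, against 3424 in the data. The adjustment was therefore stricter there, and these shares do not give the recovery in the data. No label says that the 3 samples of a group are separate cultures; p-values cover the spread between samples, possibly technical, and the small number of arrays sets the precision. Members, lists and tests were chosen with earlier results of these data known. Any member could be named. The rule picked for fuller values all linker genes and variants and, in each core class, up to 6 called members by p, the largest rise and fall and the 2 brightest, and, per list, up to 6 called genes by size, some of which are left to the counts. Chosen after their values were seen were the values of H2ac1 and H3c3 on each array, the markers Krt18, Cdh1 and Ptprc, and the neighbours of the clusters. Alternatives were a trended robust prior, repeated quantile normalization, median centring, a filter on dim genes, probe set means, array weights, a replicate block, leaving out each array, an adjusted p of 0.01, 1.5-fold, and members above the bound. Counting H3c14 and H3c15 once, also in the medians of H3 and of chromosome 3, was added after seeing the data.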

Additional observations from a re-analysis of the deposited data

Results flagged for a closer look

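The 2634 probe sets left without a gene name here entered none of the comparisons above. In a separate limma fit together with the named genes, 150 of them were called higher and 128 lower in AC9 at an adjusted p of 0.05. Both are smaller shares than the 8.26% and 9.29% of the genes tested. They are given because they lie outside the comparisons above.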

How the results depend on the processing

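The number of histone genes that rose, 50, was 43 to 51 under the 13 refits, 40 at an adjusted p of 0.01, 49 with H3c14 and H3c15 counted once, and 32 with at least 1.5-fold required. Leaving out 1 array gave 43 to 47. The same 42 rises held under every refit, and 9 calls (H1f2, H2ac1, H2ac20, H2ac21, H3c3, H4c8, H4c9, H4c11 and H2az2) were lost under at least 1. The single fall, H2az2, became 2 falls with an intensity-trended robust prior, which also called H3f3a lower and H2az1 higher (adjusted p 0.0163 and 0.0209), and 0 at an adjusted p of 0.01, with 1.5-fold required, or without AC9 replicate 2 (0 to 1 over the arrays left out). The median change of 0.59 was 0.56 with repeated quantile normalization, 0.62 with arrays centred on the median, 0.61 with dim genes left out and 0.61 over members with a mean above the bound, and 0.57 to 0.62 with 1 array left out. Changes of sign occurred only in genes that were not called, with these ranges over the arrays left out: H1f7 -0.014 to 0.048 (negative without AC9 replicate 3, at -0.0025, and without VECTOR replicate 2), H2ac6 -0.013 to 0.18, H2bc1 -0.13 to 0.23, H2bc21 -0.016 to 0.16, H3c1 -0.35 to 0.052 and H3f3b -0.084 to 0.056. The cause of these shifts was not tested. With the replicate number as a block, 49 members rose and 1 fell, H4c8 losing its call (adjusted p 0.0800). Same-numbered arrays shared only a number: their deviations correlated at 0.0085, 0.08 and 0.0076 across genes, and not every array correlated best with its own number. With 3 arrays per group, small changes of dim genes could not be resolved.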
